A study of Mus musculus with 18 samples.

Results

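The genes described here are 10 ligands and receptors of the vascular endothelial growth factor (VEGF) and angiopoietin families, taken by name from a table of 30583 genes: the ligands Vegfb, Vegfc, Pgf, Angpt1 and Angpt2, and the receptors Flt1, Kdr, Flt4, Tie1 and Tek. They were followed through the first 72 h of myocardial infarction in the mouse left ventricle. RNA came from 18 male C57BL/6JR mice aged 12 weeks, in 6 groups of 3 mice. In 5 groups the left anterior descending coronary artery, which feeds the front of the left ventricle, was tied, and the heart was taken after 10 min or after 1, 6, 24 or 72 h; the sham group had the thread passed and left untied. Each time after ligation was compared with the same 3 sham mice. No sham group was matched to each time, so effects of ligation and of time since surgery cannot be told apart. The labels of the ligated mice name sodium pentobarbital, at a dose that differs between mice and is higher in the later groups; if those entries are right, dose and time cannot be told apart. The series, by its title, asks how gene expression and DNA methylation move as an infarction progresses; methylation was not analysed here.

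VEGF ligands bind receptor tyrosine kinases on endothelial cells. Kdr (VEGFR2) carries most of the signal for endothelial growth and permeability, Flt1 (VEGFR1) binds ligand tightly with weak kinase activity and exists in membrane and soluble forms, and Flt4 (VEGFR3) serves mainly lymphatic vessels. Vegfb and Pgf bind Flt1, whereas Vegfc binds Flt4 and, after processing, Kdr. Angiopoietins act on Tek (Tie2), with Tie1 as its partner. Angpt1, made by cells around the vessel, keeps endothelium quiet, and Angpt2, released by activated endothelium, can block that signal. In the heart Vegfb is made largely by cardiomyocytes, and the 5 receptors are mainly endothelial.

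Libraries held 18.2 to 25.1 M counts (M, mega), and levels are counts per M counts after TMM scaling (CPM), a scaling that sets the bulk of genes equal between libraries. A gene was called when edgeR's quasi-likelihood test gave a Benjamini-Hochberg adjusted p under 0.05 over all 16311 genes that passed the count filter; all 10 genes passed it, each through every group, with 55 counts in the lowest library of Angpt2, the scarcest. The labels name cardiomyocytes as the cell type and myocardial tissue as the source. The libraries read as tissue: in sham the 8 cardiomyocyte markers summed to 65550 to 71002 CPM, and the 14 endothelial markers (1878 to 1912 CPM), 9 mural cell markers (1377 to 1417 CPM) and 6 fibroblast markers (657 to 704 CPM) were all detected. Markers of other cells moved strongly. The cardiomyocyte sum was 17225 to 22399 CPM at 72 h, the sum of 8 monocyte and macrophage markers went from 129 to 142 CPM in sham to 1599 to 1945 CPM at 72 h, and the sum of 5 neutrophil markers was 733, 260 and 96.6 CPM in replicates 1 to 3 at 6 h and 152, 35.1 and 652 CPM at 24 h, against 2.31 to 3.58 CPM in sham. In such libraries fewer cells of a type and less RNA per cell cannot be told apart.

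Promoter sequence was available for 8 of the 10 genes (all but Angpt1 and Angpt2), in 9 windows running from 250 bases before to 50 bases after a RefSeq start (GRCm38.p6). Pgf, the gene with the largest rise, has 2 starts in the table, and its window with a hypoxia core is given with those of Flt1 and Kdr, the VEGF receptors whose ratio is followed through the time course. Capitals mark the letters GCGTG, a core of the hypoxia response element, read on either strand (CACGC on the other), and in Kdr also CCGGAA, an ETS core (TTCCGG on the other strand).
Pgf, chr12:85177264-85177563, minus strand: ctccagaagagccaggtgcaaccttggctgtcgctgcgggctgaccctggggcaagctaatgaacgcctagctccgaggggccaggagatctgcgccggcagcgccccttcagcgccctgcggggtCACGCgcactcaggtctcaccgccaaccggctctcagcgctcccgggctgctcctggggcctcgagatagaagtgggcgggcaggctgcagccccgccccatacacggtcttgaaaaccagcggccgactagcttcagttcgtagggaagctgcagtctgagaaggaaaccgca
Flt1, chr5:147725962-147726261, minus strand: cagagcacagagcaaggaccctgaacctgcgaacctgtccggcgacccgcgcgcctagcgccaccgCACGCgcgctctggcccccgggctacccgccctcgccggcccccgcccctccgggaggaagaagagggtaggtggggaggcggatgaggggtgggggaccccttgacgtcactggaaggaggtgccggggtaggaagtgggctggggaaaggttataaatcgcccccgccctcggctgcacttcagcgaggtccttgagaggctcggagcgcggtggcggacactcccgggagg
Kdr, chr5:75978406-75978705, minus strand: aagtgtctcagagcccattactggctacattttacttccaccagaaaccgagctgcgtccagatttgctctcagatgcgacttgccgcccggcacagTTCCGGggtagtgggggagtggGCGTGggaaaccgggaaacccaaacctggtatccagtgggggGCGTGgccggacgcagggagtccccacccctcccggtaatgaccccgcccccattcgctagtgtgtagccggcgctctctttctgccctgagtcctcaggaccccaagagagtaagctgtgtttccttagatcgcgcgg

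The other Pgf window, chr12:85175933-85176232, held none of the motifs searched. In the window shown, the GCGTG core lay 124 bases before the start in Pgf, 184 bases before it in Flt1, and 131 and 89 bases before it in Kdr; the ETS core of Kdr lay 153 bases before its start. The window of Vegfb held GCGTG at 237 and 81 bases before the start. Counting ACGTG or GCGTG on either strand, 4 of the 9 windows (44.4%) held a hypoxia core, beside 43.8% of all 32851 windows of that length in the table, so the share in these genes was that of promoters at large. ACGTG was in 19.6% of all windows and GCGTG in 32.4%, with windows that hold both counted in each share. The AP-1 letters TGANTCA, in 7.81% of all windows, were in 0 of the 9, CCGGAA (14.9% of all windows) was in 1, and the GATA letters AGATAA (11.2% of all windows) were in 1, that of Tek, 36 bases after the start. A match is a run of letters, not a measured binding site.

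Compared per length (CPM per kb of gene model), Vegfb was the most abundant of the 10 in sham, at 171 ± 2.54 CPM per kb (SD, n = 3), followed by the receptors Tie1 at 50.1 ± 1.37, Kdr at 33.1 ± 3.89, Flt1 at 20.7 ± 1.87 and Tek at 20.5 ± 0.674. Flt1 and Tek overlapped in this order. Angpt1 stood at 7.57 ± 0.396, Flt4 at 4.89 ± 0.415 and Vegfc at 4.85 ± 0.750, the last 2 overlapping, and Pgf (2.90 ± 0.327) and Angpt2 (1.51 ± 0.199) closed the order. Vegfb, Tie1 and Kdr, or Pgf in place of Kdr at 6 h, were the top 3 at every time. At 6 h Pgf had moved from ninth place to the third, at 28.5 ± 10.8 CPM per kb, overlapping Tie1 above it and Kdr below it, and Vegfc was last at 2.83 ± 0.516. At 72 h Flt1, at 5.65 ± 1.03 CPM per kb, stood below Angpt1, at 6.06 ± 1.81, with overlapping ranges, and Angpt2 was last again at 2.79 ± 0.744. The length used for Angpt1, 4256 bases, is shorter than its 5205 exonic bases in GENCODE. On the longer length the mean of Angpt1 would lie below that of Flt1 at 72 h.

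**Figure D1:**
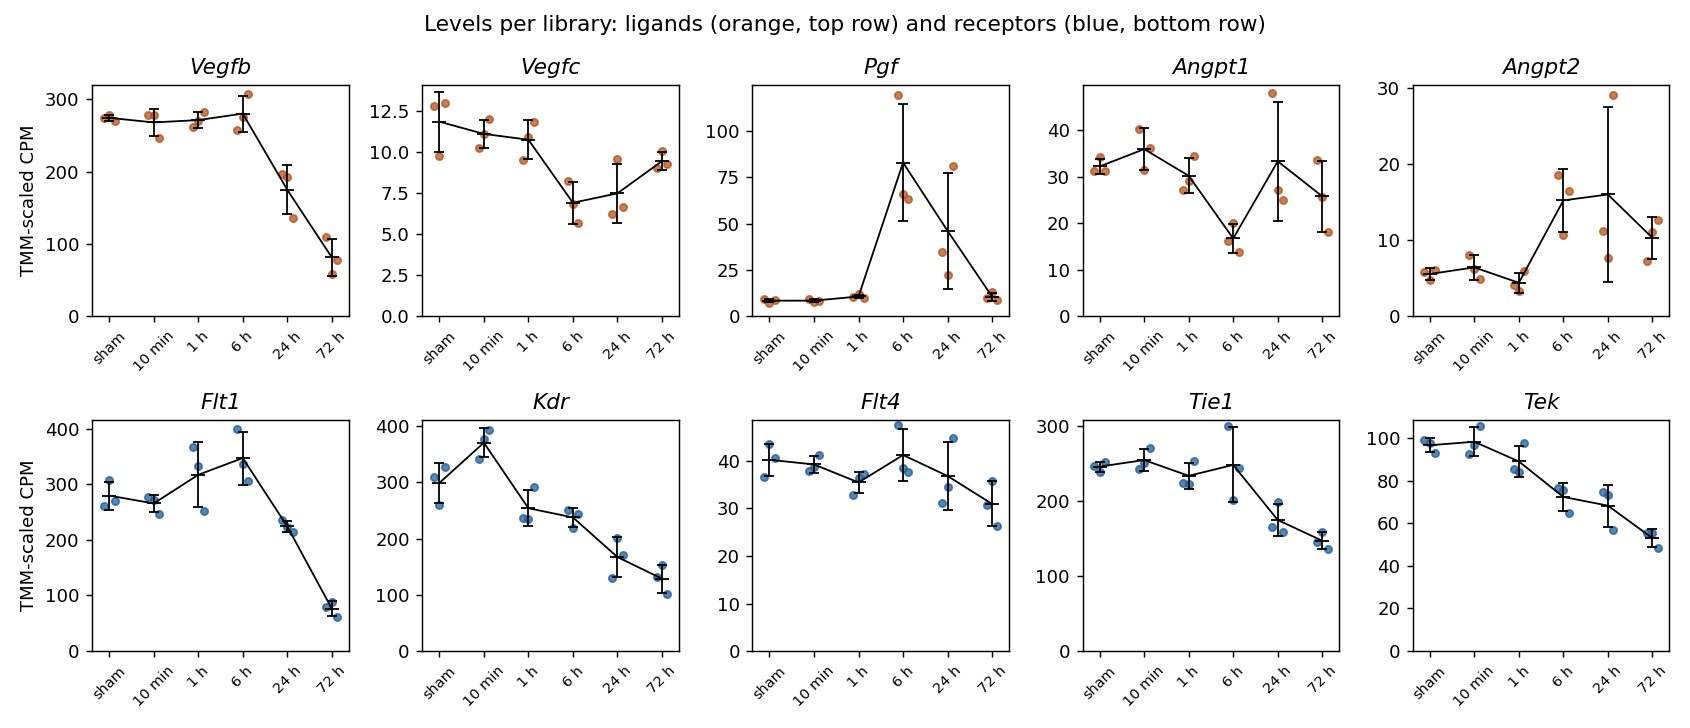
TMM-scaled CPM of each gene in each of the 18 libraries, ligands in the top row and receptors in the bottom row, by group on the horizontal axis; each point is 1 mouse, the line joins group means and bars are SD (n = 3), and each panel has its own vertical scale from 0. Pgf is near 10 CPM in sham and at 63.3 to 119 CPM at 6 h, while Vegfb, Flt1, Kdr, Tie1 and Tek are at their lowest mean at 72 h.

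None of the 10 genes was called at 10 min or at 1 h against sham, with edgeR or with DESeq2, and 0 had an unadjusted edgeR p under 0.05 at either time. Few genes of any kind were called then: 0.0736% of the 16311 at 10 min and 0.294% at 1 h. The smallest unadjusted p at either time belonged to Kdr at 10 min, which read 342, 377 and 394 CPM at 10 min against 311, 260 and 327 CPM in sham, with no overlap but a log2 difference of 0.31 ± 0.15 (SE; 95% interval -0.02 to 0.64; edgeR adjusted p = 0.734). At 1 h it read 237, 234 and 291 CPM. Between 10 min and 1 h, where 0.307% of all genes were called, 0 of the 10 were, and Kdr, at -0.54 ± 0.16 on the log2 scale, was the 1 gene with an unadjusted p under 0.05 (edgeR adjusted p = 0.23). With only those 2 groups in the fit, Kdr was called lower at 1 h than at 10 min (adjusted p = 0.0029). For the least abundant ligands the 95% interval at 1 h stayed wide, -0.54 to 1.22 for Pgf and -1.28 to 0.60 for Angpt2. With 3 mice a group, changes within those bounds are not excluded.

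By 6 h ligands moved in opposite directions: Pgf and Angpt2 rose, Vegfc and Angpt1 fell, and of the receptors Tek fell. That is 5 of 10 called, beside 28.4% of all genes (16.3% higher and 12.2% lower). At 24 h the count was 7 of 10, beside 43.8% of all genes (23.7% higher and 20.2% lower): Pgf and Angpt2 higher, and Vegfb, Vegfc, Kdr, Tie1 and Tek lower. At 72 h it was 6 of 10, all lower, beside 66.4% of all genes (34.2% higher and 32.2% lower), a share near the background in total. These 6 were Vegfb and all 5 receptors, although scaled to library totals instead of TMM, Flt4 turned to a log2 difference of 0.21 and Tie1, at -0.16, was no longer called (adjusted p = 0.274). Median log2 differences of the 10 genes from sham at 6, 24 and 72 h were 0.02, -0.41 and -0.56, beside -0.01, 0.01 and 0.03 for all genes tested. Scaling to library totals moved the all-gene medians to -0.12, 0.20 and 0.61 and put 40.6%, 75.5% and 79.9% of the calls on the higher side; Flt4 and Tie1 at 72 h were thus below the median gene on that scale too. With limma on log2(FPKM + 1) without a filter on low values, the 24 h calls of Vegfb, Vegfc, Tie1 and Tek were lost (adjusted p = 0.0835, 0.101, 0.131 and 0.0621), as was the 72 h call of Tek (adjusted p = 0.0566). In an F test over the 5 times, 9 of the 10 genes were called, beside 78.4% of all genes; Flt4 was not (edgeR adjusted p = 0.0769).

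**Figure D2:**
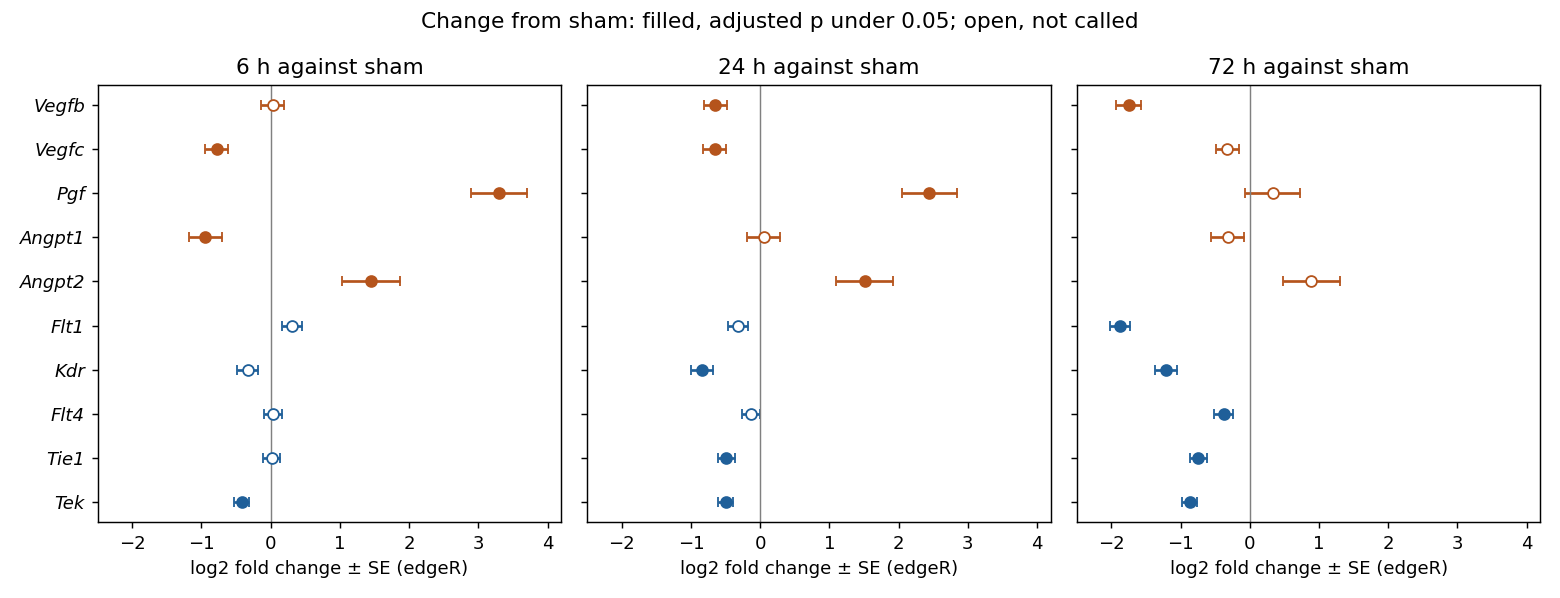
Log2 fold change from sham (horizontal axis, edgeR, bars are SE) of the 10 genes at 6, 24 and 72 h; filled points have an adjusted p under 0.05. Pgf and Angpt2 lie to the right at 6 and 24 h, and at 72 h the filled points are Vegfb and the 5 receptors, all to the left, of which Flt4 changes sign and Tie1 loses its call when libraries are scaled to their totals.

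Pgf (placental growth factor, a ligand of Flt1; ENSMUSG00000004791, chr12:85166635-85177790, GRCm38) rose most. Its libraries read 9.30, 7.42 and 8.53 CPM in sham, 10.1, 11.8 and 10.0 CPM at 1 h, and 119, 66.0 and 63.3 CPM at 6 h. Every 6 h library was above every sham library, a 9.82-fold rise (log2 3.30 ± 0.41 SE, edgeR adjusted p = 7.32e-05), and the step from 1 h alone was 7.76-fold (adjusted p = 0.000213), in a comparison that called 24.5% of all genes. At 24 h Pgf read 34.8, 22.1 and 81.2 CPM, 5.44-fold above sham (log2 2.44 ± 0.40, edgeR adjusted p = 0.00031), with replicate 3 far above the others. Without replicate 3 the 24 h mean was 28.5 CPM in place of 46.0 CPM, the rise over sham stayed called, and the fall from 6 h, not called with all libraries (-0.85, adjusted p = 0.0974), was called (-1.54, adjusted p = 0.000841). At 72 h Pgf read 9.87, 13.1 and 8.78 CPM, overlapping sham (log2 0.33 ± 0.40, 95% interval -0.52 to 1.2, edgeR adjusted p = 0.482) and 4.33-fold below 24 h (adjusted p = 0.000384). It was called higher than sham at 72 h on library totals, at 0.91 (adjusted p = 0.0462). The libraries highest in Pgf at each time, replicate 1 at 6 h and replicate 3 at 24 h, were also the highest in the neutrophil marker sum (733 and 652 CPM). Within their groups they were also the lowest in the cardiomyocyte marker sum (57841 and 28334 CPM) and the highest in the endothelial one (3180 and 1989 CPM). The part of any of these cells in the result was not tested.

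Vegfb (a ligand of Flt1 linked to cardiac muscle; ENSMUSG00000024962, chr19:6982473-6987651) was not called before 24 h and then fell. Sham libraries read 274.8, 278 and 270.3 CPM and 6 h libraries 258, 275 and 307 CPM, a log2 difference of 0.03 ± 0.17 (95% interval -0.32 to 0.38). At 24 h it read 197, 192 and 136 CPM, all below sham (fell by 36.3%, log2 -0.65 ± 0.17, edgeR adjusted p = 0.00494). At 72 h it read 109, 57.9 and 77.4 CPM and had decreased by 70.3% (log2 -1.75 ± 0.17, edgeR adjusted p = 8.26e-08). The 72 h libraries were below every 24 h library as well (log2 -1.10, adjusted p = 3.5e-05). The cardiomyocyte marker sum fell over the same times, from 65550 to 71002 CPM in sham to 28334 to 44790 CPM at 24 h and 17225 to 22399 CPM at 72 h. At 72 h 8 of 8 markers were called lower, beside 32.2% of all genes. The part of the cardiomyocyte change in the fall of Vegfb was not tested.

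Vegfc (the lymphangiogenic ligand of Flt4; ENSMUSG00000031520, chr8:54077606-54187096) had its lowest mean at 6 h. It read 12.8, 9.75 and 13 CPM in sham and 8.22, 6.84 and 5.70 CPM at 6 h, having decreased by 41.8% with no overlap (log2 -0.78 ± 0.17, edgeR adjusted p = 0.00256). At 24 h it read 6.26, 9.59 and 6.65 CPM (log2 -0.66 ± 0.17, adjusted p = 0.00441). At 72 h it read 9.05, 10.1 and 9.26 CPM, overlapping sham (log2 -0.33 ± 0.17, edgeR adjusted p = 0.0888) and higher than at 6 h (log2 0.45 ± 0.17, adjusted p = 0.027; 63.0% of all genes were called between those times). Without sham replicate 2, its lowest sham library, the 72 h difference was called (-0.45, adjusted p = 0.0349). Over the 16 alternative fits that difference ran from -0.45 to 0.26. On library totals the 24 h call was lost (-0.45, adjusted p = 0.0557). The rise from 24 h to 72 h was not called in the main fit (log2 0.33, edgeR adjusted p = 0.111). It was called in 5 of 16 alternatives, among them edgeR on library totals (0.71, adjusted p = 0.00321).

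The angiopoietins moved apart at 6 h. Angpt1 (the Tek agonist; ENSMUSG00000022309, chr15:42424723-42676977) read 31.2, 34.2 and 31.3 CPM in sham and 16.3, 20.1 and 13.8 CPM at 6 h, having decreased by 48.0% with no overlap (log2 -0.94 ± 0.24, edgeR adjusted p = 0.00899). At 24 h it read 48.0, 27.1 and 24.9 CPM, overlapping sham (log2 0.05 ± 0.23), and was 1.99-fold above 6 h (edgeR adjusted p = 0.00661), a call lost with only those 2 groups in the fit (adjusted p = 0.0626). At 72 h it read 33.6, 25.6 and 18.2 CPM (log2 -0.32 ± 0.23, edgeR adjusted p = 0.241). The antisense gene Gm17473 shares 737 exonic bases with Angpt1; it had 185 counts over all libraries against 11459 for Angpt1, and any use of strand in the counting is not given in the sources used here.

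Angpt2 (the context-dependent Tek antagonist; ENSMUSG00000031465, chr8:18690263-18741562) went the other way at 6 h. Its libraries read 5.86, 4.72 and 6.09 CPM in sham, 18.6, 10.7 and 16.4 CPM at 6 h, 11.3, 7.64 and 29.1 CPM at 24 h and 7.26, 11 and 12.6 CPM at 72 h. Every library at these 3 times was above every sham library. The rise was 2.73-fold at 6 h (log2 1.45 ± 0.42, edgeR adjusted p = 0.0177) and 2.85-fold at 24 h (log2 1.51 ± 0.41, adjusted p = 0.0086), and at 72 h the level was 1.85-fold that of sham without a call (log2 0.89 ± 0.41, adjusted p = 0.0698). These calls rest on few libraries. Without sham replicate 2 or 6 h replicate 1 the 6 h call was lost (adjusted p = 0.0634 and 0.0688), as it was with no low count filter (adjusted p = 0.0523). With only the 2 groups in the fit the 24 h call was lost (adjusted p = 0.0575), and without 24 h replicate 3 the 24 h difference was 0.76 (adjusted p = 0.0536) and the mean 9.45 CPM in place of 16 CPM. The 72 h difference was called in 9 of its 16 alternative fits, among them DESeq2 (adjusted p = 0.0258) and edgeR on library totals (log2 1.48, adjusted p = 0.00461). Replicate 3 at 24 h was again the library high in neutrophil markers and low in cardiomyocyte markers. The part of these cells was not tested.

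Per length, Angpt2 stood at 0.159 to 0.224 of Angpt1 in the sham libraries and at 1.32, 0.612 and 1.37 of it at 6 h. The ratio was 0.270, 0.326 and 1.35 at 24 h and 0.249, 0.496 and 0.798 at 72 h. All 9 libraries from 6 h on were above all 3 sham libraries, whereas those at 10 min and 1 h overlapped sham. The longer GENCODE length of Angpt1 would raise every one of these ratios by the same factor and leave the comparison of groups as it is. At 6, 24 and 72 h the exact two-sided permutation p was 0.1, the smallest that 3 against 3 mice can give.

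**Figure D3:**
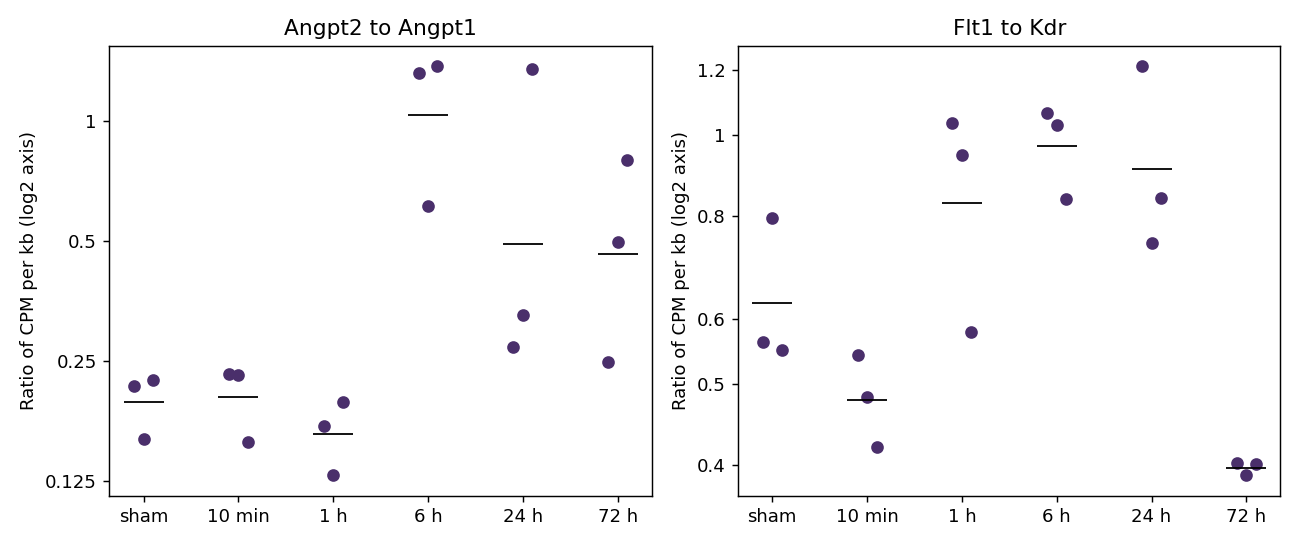
Ratio of Angpt2 to Angpt1 (left) and of Flt1 to Kdr (right) in CPM per kb on a log2 vertical axis, by group; each point is 1 mouse and the bar is the mean of the log2 ratios (n = 3). Angpt2 to Angpt1 is at most 0.224 in sham and at least 0.612 at 6 h, and Flt1 to Kdr is 0.388 to 0.402 at 72 h, below every sham library.

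Among the VEGF receptors, Flt1 (ENSMUSG00000029648, chr5:147561604-147726011) was called lower than sham at 72 h alone of the 5 times. It read 262, 309 and 269 CPM in sham and 399, 337 and 306 CPM at 6 h, a log2 difference of 0.31 ± 0.14 that was not called (edgeR adjusted p = 0.11). At 24 h it read 235, 223 and 215 CPM, below all sham libraries but not called (log2 -0.32 ± 0.14, edgeR adjusted p = 0.078) and lower than at 6 h (log2 -0.63, adjusted p = 0.00336, in a comparison that called 27.8% of all genes). That last call was lost on library totals (log2 -0.33, adjusted p = 0.0577) and in the 3 limma fits (adjusted p = 0.0728, 0.074 and 0.151). At 72 h it read 79.0, 88.6 and 61.3 CPM, having decreased by 72.7% from sham (log2 -1.88 ± 0.15, edgeR adjusted p = 4.45e-09) and by 66.0% from 24 h (adjusted p = 1.09e-07; 50.5% of all genes were called between those times). The gene count does not separate the soluble from the membrane form.

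Kdr (ENSMUSG00000062960, chr5:75932827-75978458) was called lower from 24 h on. It read 251, 219 and 244 CPM at 6 h, below all sham libraries (311, 260 and 327 CPM) without a call (log2 -0.33 ± 0.16, edgeR adjusted p = 0.118). It read 130, 201 and 171 CPM at 24 h (fell by 44.1%, log2 -0.84 ± 0.16, edgeR adjusted p = 0.000394) and 131, 153 and 102 CPM at 72 h (fell by 56.9%, log2 -1.22 ± 0.16, adjusted p = 1.85e-06). The 24 h and 72 h libraries overlapped (log2 -0.38 ± 0.16, adjusted p = 0.0509). Flt4 (ENSMUSG00000020357, chr11:49609263-49652739) was called at 72 h alone, with 36.7, 43.5 and 40.6 CPM in sham, 47.6, 38.4 and 37.7 CPM at 6 h and 30.6, 35.8 and 26.4 CPM at 72 h. At 72 h it had decreased by 23.1% (log2 -0.38 ± 0.13, edgeR adjusted p = 0.0177), a call lost without sham replicate 2 (adjusted p = 0.0739) or without 72 h replicate 3 (adjusted p = 0.101).

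Flt1 and Kdr were also compared by their ratio within each library. Per length, Flt1 was 0.563, 0.794 and 0.550 of Kdr in sham, 0.542, 0.483 and 0.420 at 10 min, 1.06, 1.03 and 0.839 at 6 h, and 0.402, 0.388 and 0.40 at 72 h. The 10 min and 72 h libraries were thus all below sham and the 6 h libraries all above it (exact two-sided permutation p = 0.1 each, the smallest possible), whereas at 1 h and 24 h the groups overlapped. The Flt1 to Kdr ratio differed by 0.63 on the log2 scale from sham at 6 h and by -0.66 at 72 h.

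Of the angiopoietin receptors, Tek (ENSMUSG00000006386, chr4:94739289-94874976) declined from 6 h on. It read 99.1, 97.9 and 93.1 CPM in sham, 76.8, 75.6 and 64.8 CPM at 6 h, 74.8, 73.2 and 57.0 CPM at 24 h and 55.4, 55.4 and 48.3 CPM at 72 h. All 9 libraries from 6 h on were below sham, and the level fell by 25.1%, fell by 29.3% and fell by 45.1% (log2 -0.42, -0.50 and -0.87, each ± 0.11 SE, edgeR adjusted p = 0.00715, 0.00114 and 1.08e-06). The further fall from 24 h to 72 h (log2 -0.37, adjusted p = 0.008) turned to a difference of 0.025 on library totals. Tie1 (the orphan partner of Tek; ENSMUSG00000033191, chr4:118471191-118490061) read 247, 239 and 253 CPM in sham and 301, 201 and 244 CPM at 6 h, overlapping each other (log2 0.01 ± 0.12). It then read 166, 199 and 159 CPM at 24 h (log2 -0.49 ± 0.12, edgeR adjusted p = 0.00371; -0.29 and not called on library totals, adjusted p = 0.068) and 146, 159 and 137 CPM at 72 h (log2 -0.74 ± 0.12, adjusted p = 3.61e-05).

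The receptors were also set against the vascular endothelium around them, read as 14 marker genes that include none of the 10. These markers were higher at 6 h, with 8 of 14 called higher and 1 lower, beside 16.3% and 12.2% of all genes. Their sum was then 2553 to 3180 CPM against 1878 to 1912 CPM in sham. On TMM scaling they were lower at 72 h, with 9 called lower and 1 higher, beside 32.2% and 34.2% of all genes. Their median log2 difference was then -0.40. Scaling to library totals moved the all-gene median at 72 h from 0.03 to 0.61, and the marker and pathway lists were not refitted on that scale. In either direction the share of these markers called at 72 h was near the 66.4% of all genes. Their sum was 1223 to 1423 CPM at 72 h, and at 24 h, at 1688 to 1989 CPM, it spanned that of sham. The 4 list members with the smallest F test p, which are part of these counts, were higher at 6 h and lower at 72 h: Fabp4, a fatty acid binding protein of capillaries, had a log2 difference of 0.90 at 6 h and -0.89 at 72 h, and Esam, a junction protein, 0.76 and -0.39. Sox17, an endothelial transcription factor, stood at 1.10 and -0.68, and Robo4, a guidance receptor of endothelium, at 0.41 and -0.96, all with edgeR adjusted p under the threshold of 0.05. The members called the other way, named after their values were seen, were Emcn, a sialomucin of capillaries and veins, at -0.63 at 6 h (edgeR adjusted p = 0.000373), and Cldn5, a tight junction protein, at 0.75 at 72 h (adjusted p = 0.0202).

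Relative to the mean log2 CPM of those 14 markers in the same library, Kdr was lower than in sham at 6, 24 and 72 h, with log2 differences of -0.83, -0.84 and -0.86. The same differences were -0.92, -0.50 and -0.50 for Tek and -0.51, -0.49 and -0.38 for Tie1. For these 3 receptors all 9 libraries from 6 h on were below all sham libraries (exact permutation p = 0.1 at each time, the smallest possible). The marker mean itself was higher at 6 h, at 6.88 against 6.38 in sham, and the relative values at 6 h include that rise. In CPM the log2 differences at 6 h were -0.33 for Kdr (not called), -0.42 for Tek, 0.01 for Tie1 and 0.03 for Flt4. Flt1 overlapped sham at 10 min, 1 h, 6 h and 24 h and stood at -1.52 at 72 h with no overlap. At the early times Kdr stood above all sham libraries at 10 min (0.26) and Flt4 below them at 1 h (-0.23), at the same smallest p of 0.1 (exact permutation test). Flt4 stood at -0.47 at 6 h with no overlap, and at -0.02 at 72 h (overlapping; exact permutation p = 0.8). Angpt2 was above sham on this scale too, by 0.92, 1.31 and 1.23 at 6, 24 and 72 h, with no overlap.

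**Figure D4:**
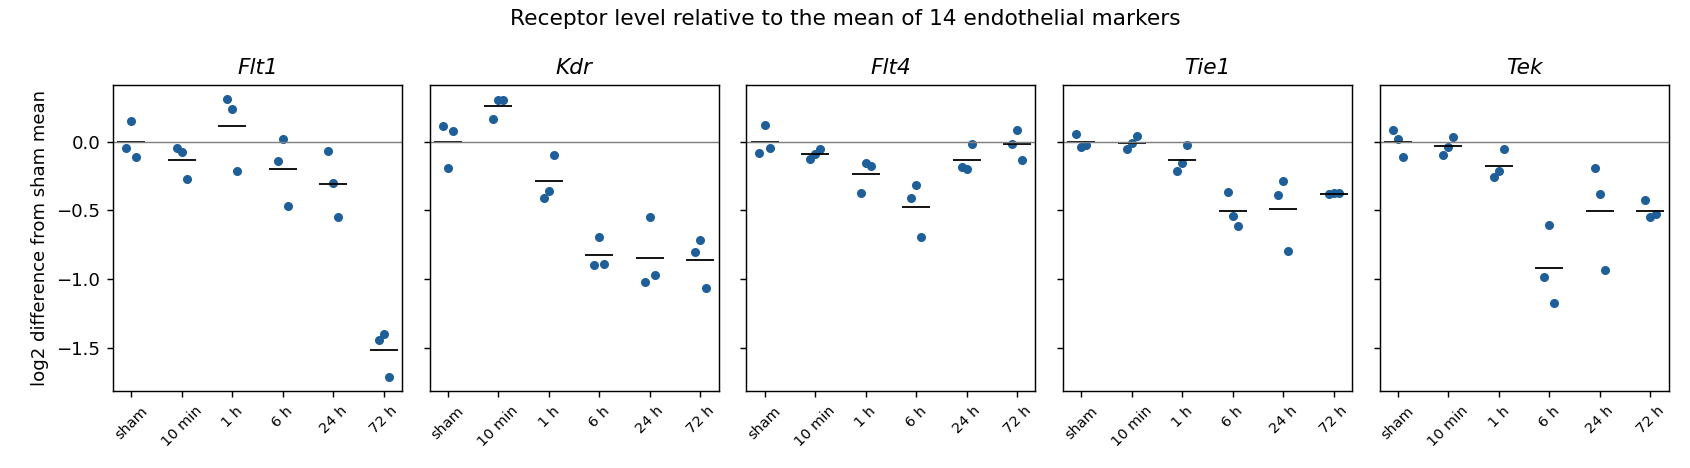
Log2 CPM of each receptor minus the mean log2 CPM of 14 endothelial markers in the same library, shown as the difference from the sham mean (vertical axis) by group; each point is 1 mouse, the bar is the group mean (n = 3). Kdr lies near -0.8 from 6 h on, Flt1 drops to -1.52 at 72 h, and Flt4 overlaps sham at 72 h. The marker mean itself was higher at 6 h (6.88 against 6.38 in sham).

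The other genes of the pathway were read from 4 lists, given as counts called higher and lower than sham at 6, 24 and 72 h. The shares of all genes beside which they are read are 16.3% higher and 12.2% lower, 23.7% and 20.2%, and 34.2% and 32.2% (28.4%, 43.8% and 66.4% in either direction), and the all-gene medians were -0.01, 0.01 and 0.03. Co-receptors, other ligands and processing genes (13 tested) gave 2 higher and 1 lower, 2 and 6, and 6 and 4, with median log2 differences of -0.02, -0.33 and 0.27. Among them Vegfd, a ligand of Flt4, went from 1.33 ± 0.454 CPM in sham to 8.34 ± 0.698 CPM at 72 h (log2 2.64 ± 0.27, edgeR adjusted p = 1.03e-07) and stood at a log2 difference of 0.11 at 24 h. Ptprb, the phosphatase VE-PTP that restrains Tek and Kdr, fell from 312 ± 22.1 to 103 ± 17.2 CPM at 72 h (log2 -1.60, adjusted p = 9.51e-09). Adamts1, a protease that binds VEGF, was highest at 6 h, at 354 ± 183 CPM against 50.7 ± 5.46 CPM in sham (log2 2.80, adjusted p = 1.72e-05). Svep1, a matrix protein reported to bind Tie1, rose at 72 h (log2 0.86, adjusted p = 0.000143).

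Signal transducers (13 tested) gave 5 higher and 4 lower at 6 h, 5 and 3 at 24 h, and 4 and 6 at 72 h, with medians of 0.16, 0.23 and -0.14; at 72 h the 10 of 13 called stood beside 66.4% of all genes. Plcg1, the phospholipase recruited by Kdr, fell at all 3 times, to 48.2 ± 1.51 CPM at 72 h from 88.5 ± 2.16 CPM in sham (log2 -0.88, edgeR adjusted p = 1.11e-06). Shb, a Kdr adaptor, rose at 6 h (log2 1.33, adjusted p = 0.000158) and 24 h (adjusted p = 0.000216) and stood at 0.05 at 72 h. Dok2, an adaptor of Tek that blood cells also express, rose at 24 h (log2 2.15) and 72 h (log2 1.96), as did the kinase Src (log2 0.67 and 1.42). Macrophage markers rose too, with 7 of 8 called higher at 24 h and 8 of 8 at 72 h, beside 23.7% and 34.2% of all genes. The part of those cells was not tested.

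VEGF-responsive and tip cell genes (13 tested) gave 2 higher and 3 lower at 6 h, 6 and 1 at 24 h, and 7 and 2 at 72 h, with medians of 0.30, 0.38 and 0.84; the 9 of 13 called at 72 h stood near the 66.4% of all genes. Rcan1, a calcineurin inhibitor induced by VEGF in culture, read 60.6 ± 1.51 CPM in sham and 348 ± 86.0 CPM at 6 h (log2 2.52, edgeR adjusted p = 7.11e-08) and was still higher at 72 h (log2 1.22). Adm, the peptide adrenomedullin, peaked at 6 h (28.9 ± 10.5 CPM against 8.28 ± 0.599 CPM, log2 1.80, adjusted p = 0.000239). Plvap, a diaphragm protein of fenestrated endothelium, rose late, from 12.1 ± 3.02 CPM to 77.5 ± 6.11 CPM at 72 h (log2 2.67, adjusted p = 6.27e-08), and so did the chemokine receptor Cxcr4 (log2 2.51), which leukocytes also express.

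Secreted antagonists and brakes (9 of 10 tested; Hhip did not pass the filter) gave 5 higher and 1 lower at 6 h, 6 and 1 at 24 h, and 8 and 0 at 72 h, with medians of 2.0, 1.45 and 1.85. Col18a1, the collagen that yields endostatin, rose from 15.9 ± 1.28 CPM to 121 ± 32.3 CPM at 72 h (log2 2.92, edgeR adjusted p = 1.39e-08). Thbs2, a thrombospondin, was lower at 24 h (log2 -1.20, adjusted p = 0.000949) and higher at 72 h (log2 1.85, adjusted p = 3.94e-06). Sema3f, a neuropilin ligand, was highest at 6 h (82.2 ± 26.0 CPM against 20.5 ± 1.97 CPM, log2 2.0, adjusted p = 3.19e-05). Vash1, made by endothelium, fell at 6 h (log2 -0.67) and rose at 72 h (log2 0.59). All 6 fibroblast markers were called higher at 72 h, beside 34.2% of all genes, and their sum was then 7814 to 10092 CPM. Fibroblasts also make Thbs2 and Col18a1, and the part of these cells was not tested.

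**Figure D5:**
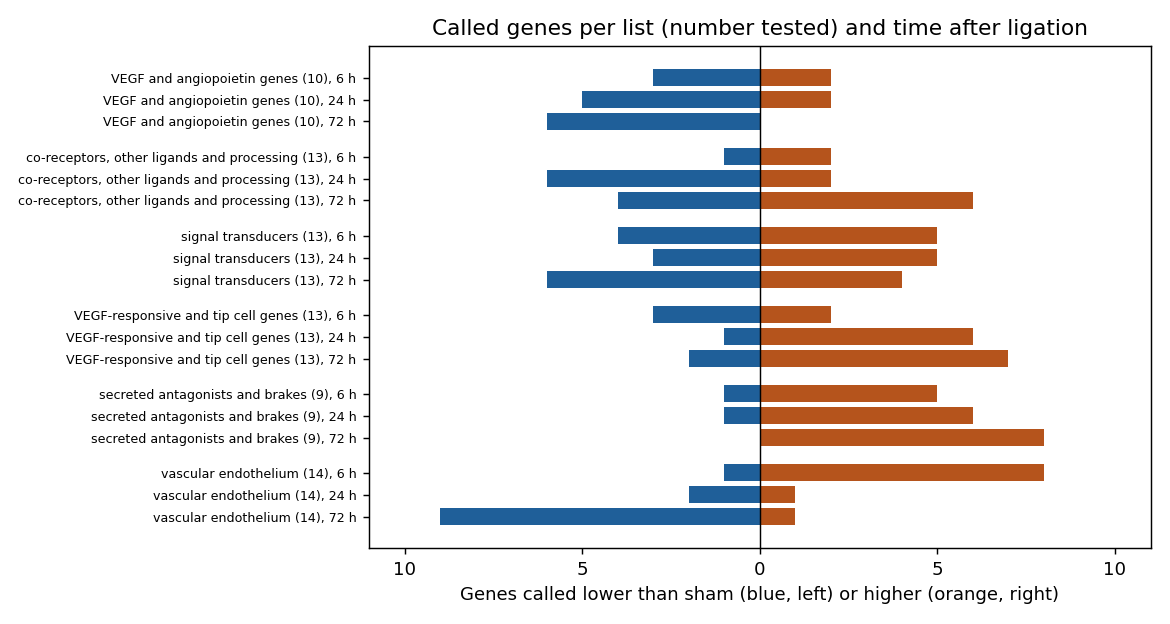
Number of genes called lower (left, blue) and higher (right, orange) than sham by edgeR at 6, 24 and 72 h, for the 10 VEGF and angiopoietin genes, 4 pathway lists and 14 endothelial markers, with the number tested in brackets. The 10 genes have 6 lower and 0 higher at 72 h (Flt4 changes sign and Tie1 loses its call on library totals), and the antagonists have 8 higher and 0 lower.

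Genes whose log2 CPM followed a member most closely over the 18 libraries are given as a description; libraries of a group share their time point, and genes that change strongly between times give high values. Hbegf (Pearson r = 0.97), Bcr (0.97) and Usp53 (0.97) were nearest to Pgf among 11673 genes averaging 50 counts or more. Nearest to Kdr were Itpkb (0.96), Tmem204 (0.94) and Mcc (0.94), and nearest to Tek were Cavin2 (0.97), Afdn (0.96) and Vtn (0.96). Angpt2 was followed by Nol9 (0.94), Chst1 (0.93) and Pisd (0.93), and Angpt1 less closely by Ormdl1 (0.87), Sema3c (0.83) and Sec22c (0.83).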

How the data were processed

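RNA from 18 mice (6 groups of 3) was sequenced after poly(A) selection, fragmentation and random priming, per the labels' protocols. The submitters' processing notes name cutadapt 1.18, HISAT2 2.1.0, featureCounts and the build mm10. The authors deposited whole-number read counts per Ensembl gene and FPKM (fragments per kb of gene per M counts), per the file headers and the values. At 6 h, FPKM of replicate 2 corresponds to the counts of replicate 3 and the reverse; which table is labelled rightly is not known, and both belong to 1 group. Of 30583 gene IDs, 30489 matched a symbol in GENCODE M21 (GRCm38), the source of coordinates; gene lengths are those the deposited FPKM implies.

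The count model was fitted with edgeR 4.0.16 (R 4.3.3): filterByExpr (16311 genes kept), TMM (factors 0.825 to 1.43), glmQLFit (robust) with 1 mean per group over all 18 libraries, and two-sided glmQLFTest with Benjamini-Hochberg adjustment over all genes; the biological coefficient of variation was 0.149. The code was tested on simulated data. Log2 differences carry the model's standard error and 95% interval; group values are mean ± SD of 3 mice. Ratios were compared by exact permutation tests. Marker means used log2(CPM + 0.1). Alternatives were DESeq2 1.42.0, limma 3.58.1 on log2(FPKM + 1) or log2(FPKM + 0.1), other scalings and filters, fits of 2 groups, a replicate block and leaving out each library.

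The genes and lists were chosen with earlier results of these data known. Beside the 10 genes, text names from each list the genes (at most 4) with the smallest F test p, and the 3 genes most correlated with Pgf, Kdr, Angpt1, Angpt2 and Tek. Emcn, Cldn5, Tagln and Mmrn1 were named beyond this rule, after their values were seen. Motifs were searched in RefSeq promoter windows on both strands. PCR reads without molecular identifiers are not independent molecules, so counting precision covers counting error only.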

Additional observations from a re-analysis of the deposited data

How the results depend on the processing

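Over 1440 pairs of a gene's contrast and an alternative, 1342 kept their side of the threshold, 61 lost a call and 29 gained one. Another 8 changed sign with a call in the main fit or the alternative. Sign changes without a call in either fit are counted among the 1342. Vegfc at 72 h against sham, at -0.33 in the main fit and up to 0.26 in the alternatives, is an example. The 8 sign changes with a call were Flt4 at 72 h against sham (0.21 on library totals, 0.17 with limma on log2(FPKM + 1), 0.20 with + 0.1 and 0.17 without a filter) and Tek at 72 h against 24 h (0.025, 0.033, 0.036 and 0.033 under the same settings), where all-gene medians also shift. For 24 h against 6 h, 5 calls became 1 on library totals, with each of the 3 limma fits and with only the 2 groups. For 24 h against sham, 7 became 3 with limma without a filter. For 6 h against 1 h, 5 became 3 with no low count filter, and for 1 h against 10 min, 0 became 1 with only the 2 groups. Leaving out 1 library gave 4 to 5 calls at 6 h, 6 to 7 at 24 h and 5 to 7 at 72 h against sham, 2 to 4 for 6 h against 1 h (2 without 1 h replicate 3 or 6 h replicate 3, 3 without 6 h replicate 1), 4 to 6 for 24 h against 6 h and for 72 h against 24 h, and 8 to 10 in the F test. The limma fits used the deposited FPKM, which are scaled to library totals, so they are not separate from that scaling. The cause of the other shifts was not tested.

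No pairing of the mice by replicate number was seen, which does not exclude one: 4 of 45 same-numbered pairs correlated above 0.1, and 6 of 18 libraries correlated best with their own number. With a replicate block the calls were 5 at 6 h, 8 at 24 h and 7 at 72 h against sham and 4 for 6 h against 1 h. Depth limits Angpt2 most, at 55 counts in its lowest library.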

Other observations

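Pgf and Vegfb, both ligands of Flt1, were compared by their ratio. Per length, Pgf was 0.0147 to 0.0187 of Vegfb in sham, 0.114 to 0.255 at 6 h, 0.0634 to 0.331 at 24 h and 0.05 to 0.12 at 72 h, and every library from 1 h on (0.0196 to 0.0243 at 1 h) was above every sham library. Pgf was 0.112 to 0.165 of Flt1 in sham, 0.912 to 1.39 at 6 h and 0.582 to 0.686 at 72 h, so this ratio stayed above sham at a time when Pgf itself overlapped sham and Flt1 was lower. The Tie1 to Tek ratio per length was 2.34 to 2.60 in sham, 3.76, 2.55 and 3.61 at 6 h, 2.13 to 2.68 at 24 h and 2.52 to 2.75 at 72 h. At 6 h replicates 1 and 3 lay above every sham library and replicate 2 within their range (exact two-sided permutation p = 0.2). The exact two-sided permutation p is 0.1 at best for 3 against 3 mice.

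Lists of other cells gave these values. Of 9 pericyte and smooth muscle markers, edgeR called 4 lower and 1 higher at 24 h, and 6 lower and 2 higher at 72 h. The shares of all genes called in either direction were 43.8% and 66.4%. Kcnj8, the pore subunit of a potassium channel of mural cells, fell to 26.8 ± 4.41 CPM at 72 h from 84.0 ± 3.47 CPM in sham. Abcc9, a potassium channel subunit of mural cells and cardiomyocytes, fell to 77.9 ± 9.49 CPM from 349.5 ± 15.0 CPM. Rgs5 was also lower at 72 h (log2 -1.05, edgeR adjusted p = 3.48e-07). The 2 markers called higher at 72 h were Cnn1 (log2 1.59, adjusted p = 0.000956) and Tagln (log2 1.59, adjusted p = 0.0011). Of 5 lymphatic markers tested, Prox1 (log2 -1.10) and Lyve1 (log2 -1.09) were lower and Pdpn (log2 3.21), which fibroblasts and macrophages also express, was higher at 72 h. Reln (log2 -0.26, edgeR adjusted p = 0.458) and Mmrn1 (log2 0.26, adjusted p = 0.511) were not called then, when 66.4% of all genes were. Which cells carried these values was not tested. Epicardial markers summed to 10.9 to 18.9 CPM in sham and 13.1 to 42.3 CPM at 72 h.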
